A study of Homo sapiens with 4 samples.

Results

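H1, an established line of human embryonic stem cells, was taken through hematopoietic differentiation, and RNA of the CD31+ cells was profiled on day 8. Mesoderm was induced with activin A and BMP4, and the cells were then grown in VEGF and bFGF. Cells with HAND1 overexpression (HAND1_OE, 2 libraries) were compared with cells without it (Control, 2 libraries). Both groups share the line, these growth factors, the CD31 marker and the day, but the inducer named below may differ between them. HAND1 is a basic helix-loop-helix transcription factor. The study's scheme marks the addition of DOX, an inducer of conditional transgenes, in the later days. The vector, its promoter, the number of clones, whether Control cells carried the vector or received DOX, and whether the 2 libraries of a group came from separate cultures are not given in the sources used here, so the spread between libraries may be technical. The genes described here are the Notch pathway genes, a list of 39 symbols taken by name. All 39 were found among the 58229 genes of the deposited table, with 1 row each.

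Notch is a signaling pathway between touching cells. A ligand of the Delta-like or Jagged type on 1 cell binds a Notch receptor on its neighbor, the receptor is cut by an ADAM protease and then by gamma-secretase, and the freed intracellular part enters the nucleus. There it joins the DNA-binding protein RBPJ and a Mastermind-like coactivator and switches on target genes, chiefly the HES and HEY repressors and the feedback inhibitor NRARP. In endothelium the pathway is known for arterial identity and for the choice between tip and stalk cells, and in the embryo it is required for blood stem cells to form from hemogenic endothelium.

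The table names no unit, and its values were read as FPKM, fragments scaled to transcript length and library depth, a scale on which the levels of different genes can be set side by side. A fold change is the difference of mean log2(FPKM + 1), HAND1_OE minus Control, which understates the change of genes with low values. A gene was tested if it reached 1 FPKM in at least 2 libraries, and it is called higher or lower when its limma p, adjusted across every tested gene, is under 0.05. The summed FPKM of a library was between 536284 and 606609, and 13989 to 14542 genes reached 1 FPKM. HAND1 itself stood at 12.1 and 14.3 FPKM in Control, against 520 and 517 FPKM with overexpression, a log2 fold change of 5.20, in the direction the labels give.

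Of the 39 Notch genes, 37 passed the filter on low values. NOTCH2 was called higher and MFNG and HEY2 were called lower. That is 2.70% of the tested Notch genes higher, where 2.04% of all 14622 genes tested were, and 5.41% lower, where 2.11% of all were. With 3 calls in all, these shares cannot be read as a departure from the background. Both HAND1_OE libraries lay below both Control libraries in 15 of the 37 genes (40.5%), against 30.1% of all genes tested, and above them in 5 (13.5%), against 16.2%. The log2 fold change was below 0 in 26 of the 37, or 70.3%, where 61.3% of all genes were below 0. The median was -0.21 for the Notch genes and -0.078 for all genes. After median-ratio scaling of the libraries, 22 of the 37 were below 0 and the medians were -0.12 and 0.0022. An unadjusted p under 0.05 was found for 3 of the 37 Notch genes in the upward and 12 in the downward direction, where 6.82% and 10.6% of all genes tested had one.

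**Figure D1:**
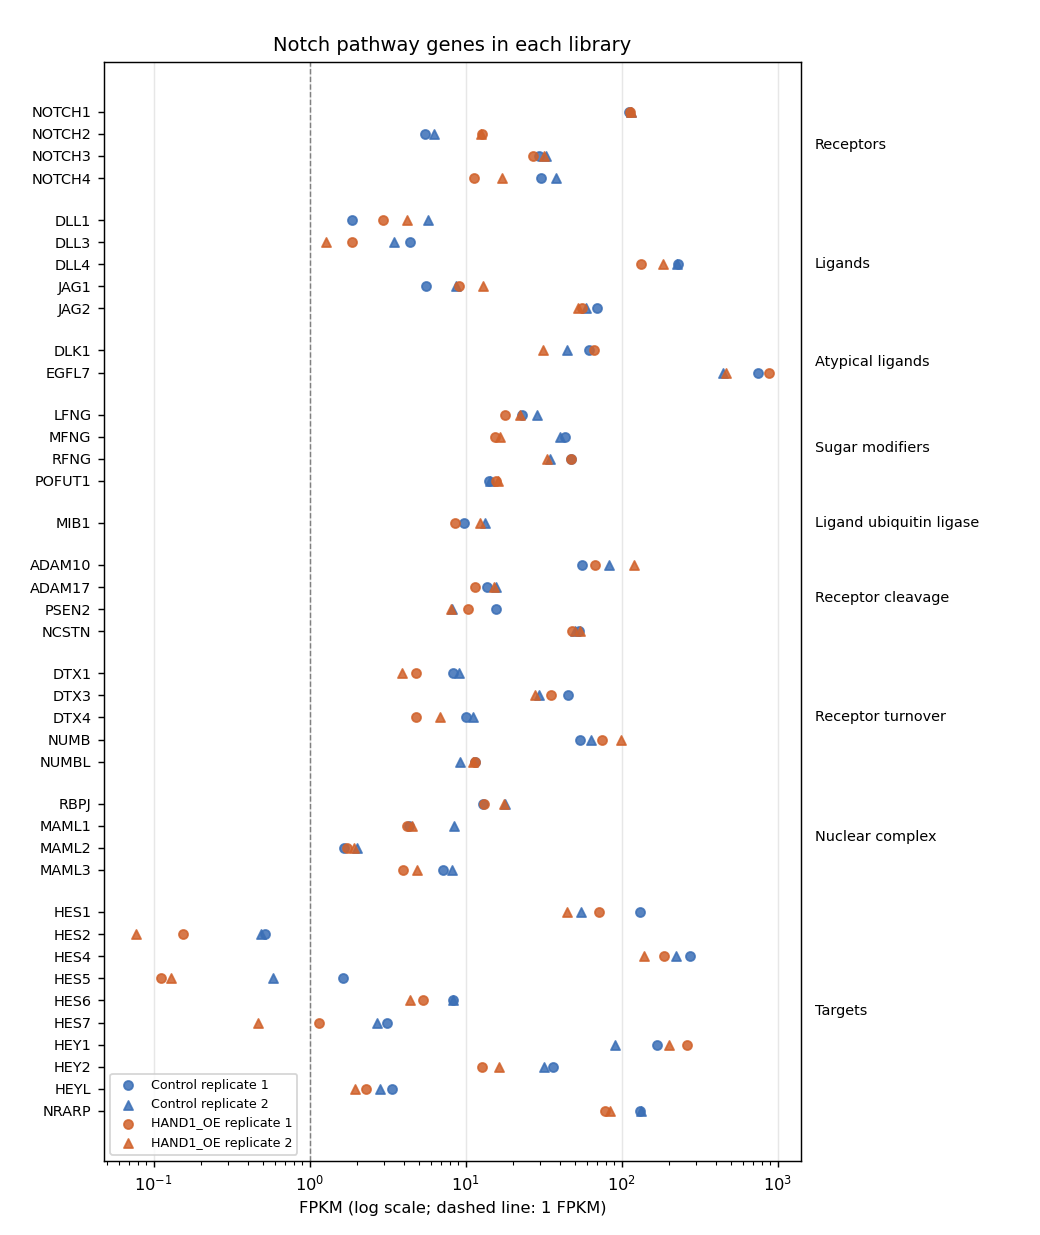
FPKM of the 39 Notch pathway genes in each of the 4 libraries, on a log axis, grouped by role; circles are replicate 1 and triangles replicate 2 of Control (blue) and HAND1_OE (orange). The orange points lie to the left of the blue ones for MFNG, NOTCH4 and HEY2 and to the right for NOTCH2 and HEY1, and the NOTCH1 points coincide near 114 FPKM.

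The first comparison asked which receptors the cells carried. NOTCH1 transcripts were the most abundant and hardly differed between the groups, NOTCH2 was about 2-fold higher in HAND1_OE, and NOTCH4, a receptor found mainly on endothelial cells, was lower but did not pass. NOTCH1 (ENSG00000148400.9) was at 111 and 115 FPKM in Control, against 113 and 115 FPKM in HAND1_OE. Its log2 fold change was 0.011, with a 95% confidence interval from -0.33 to 0.36.

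NOTCH2 (ENSG00000134250.19, GRCh38 chromosome 1, 119911553 to 120069626) was at 5.50 and 6.30 FPKM in Control, against 12.7 and 12.6 FPKM in HAND1_OE. The groups did not overlap, and each group was tight. From a mean of 5.90 ± 0.566 FPKM it rose to 12.6 ± 0.0578 FPKM (SD, n = 2), and the log2 fold change was 0.99 (standard error 0.160, limma adjusted p = 0.0359). The call needed all 4 libraries, since the adjusted p lay between 0.0523 and 0.0968 when any of the 4 was left out. NOTCH2 has near-identical partial copies on chromosome 1, so the division of reads among them is uncertain. The copy listed as NOTCH2NL was at 2.41 and 0.998 FPKM in Control, against 3.36 and 3.11 FPKM in HAND1_OE. NBPF26, whose locus holds another such copy, was at 1.27 and 1.56 FPKM in Control, against 2.80 and 2.39 FPKM in HAND1_OE. Both lay higher in HAND1_OE, as NOTCH2 did, and neither passed (limma adjusted p = 0.313 and 0.226).

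NOTCH4 (ENSG00000204301.6, GRCh38 chromosome 6, 32194843 to 32224067) was at 30.6 and 37.8 FPKM in Control, against 11.3 and 17.2 FPKM in HAND1_OE. Both HAND1_OE libraries were well below both Control libraries. The log2 fold change was -1.23 (standard error 0.235), and the limma adjusted p = 0.0545 missed the threshold. It passed without Control replicate 1 (0.0279), without HAND1_OE replicate 1 (0.0459) and without HAND1_OE replicate 2 (0.00496), but not without Control replicate 2 (0.0889). NOTCH3, best known as the receptor of mural cells, was at 29.7 and 32.6 FPKM in Control, against 26.9 and 31.7 FPKM in HAND1_OE, and its groups overlapped (log2 fold change -0.089, 95% confidence interval -0.48 to 0.30).

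The order of the receptors by mean level was not the same in the groups. In Control it was NOTCH1, then NOTCH4 and NOTCH3, whose libraries overlapped, then NOTCH2. In HAND1_OE it was NOTCH1, then NOTCH3, then NOTCH4 and NOTCH2, whose libraries overlapped. The sum of the 4 receptors was 177 and 192 FPKM in Control and 164 and 177 FPKM in HAND1_OE, so the groups lay side by side, with the higher HAND1_OE library just under the lower Control library.

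Among the ligands, DLL4 was by far the most abundant in both groups. DLL4, the main Delta-like ligand of arterial and tip cells, was at 229 and 227 FPKM in Control, against 133 and 185 FPKM in HAND1_OE. The groups did not overlap, and the HAND1_OE libraries differed more from each other than the Control libraries did. The log2 fold change was -0.54 (standard error 0.199), which did not pass (limma adjusted p = 0.250), and it was -0.30 without HAND1_OE replicate 1 and -0.77 without HAND1_OE replicate 2. JAG1, a Jagged ligand of endothelium and smooth muscle, was at 5.59 and 8.64 FPKM in Control, against 9.11 and 13.0 FPKM in HAND1_OE. It lay higher in HAND1_OE by a narrow margin (log2 fold change 0.58, limma adjusted p = 0.353). DLL3, a Delta-like protein that acts as an inhibitor inside the cell, was at 4.39 and 3.47 FPKM in Control, against 1.87 and 1.27 FPKM in HAND1_OE. It lay lower in both HAND1_OE libraries (log2 fold change -0.94, limma adjusted p = 0.0928).

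JAG2 had a Control mean of 63.9 ± 7.31 FPKM and a HAND1_OE mean of 54.2 ± 2.54 FPKM (SD, n = 2), second to DLL4 in each library. DLL1, the ligand used in somites and marginal zone B cells, was at 1.86 and 5.71 FPKM in Control, against 2.94 and 4.18 FPKM in HAND1_OE, so the Control libraries enclosed the others. None of the 5 ligands passed in limma, and 2 of them, DLL3 and DLL4, had an unadjusted p under 0.05 in the downward direction, where 10.6% of all genes did. The 5 ligands summed to 310 and 304 FPKM in Control and to 203 and 256 FPKM in HAND1_OE, with both HAND1_OE libraries below both Control libraries.

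EGFL7 and DLK1 are secreted or membrane proteins with EGF repeats that bind Notch receptors without the full activity of a ligand. EGFL7, a gene of endothelial cells, had the highest level of the 39 genes, at 750 and 444 FPKM in Control, against 882 and 468 FPKM in HAND1_OE. The libraries of each group lay far apart and the groups overlapped, so its log2 fold change of 0.15 had a 95% confidence interval from -0.81 to 1.12. DLK1 groups overlapped too, at 61.7 and 44.7 FPKM in Control, against 67.0 and 31.2 FPKM in HAND1_OE.

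**Figure D2:**
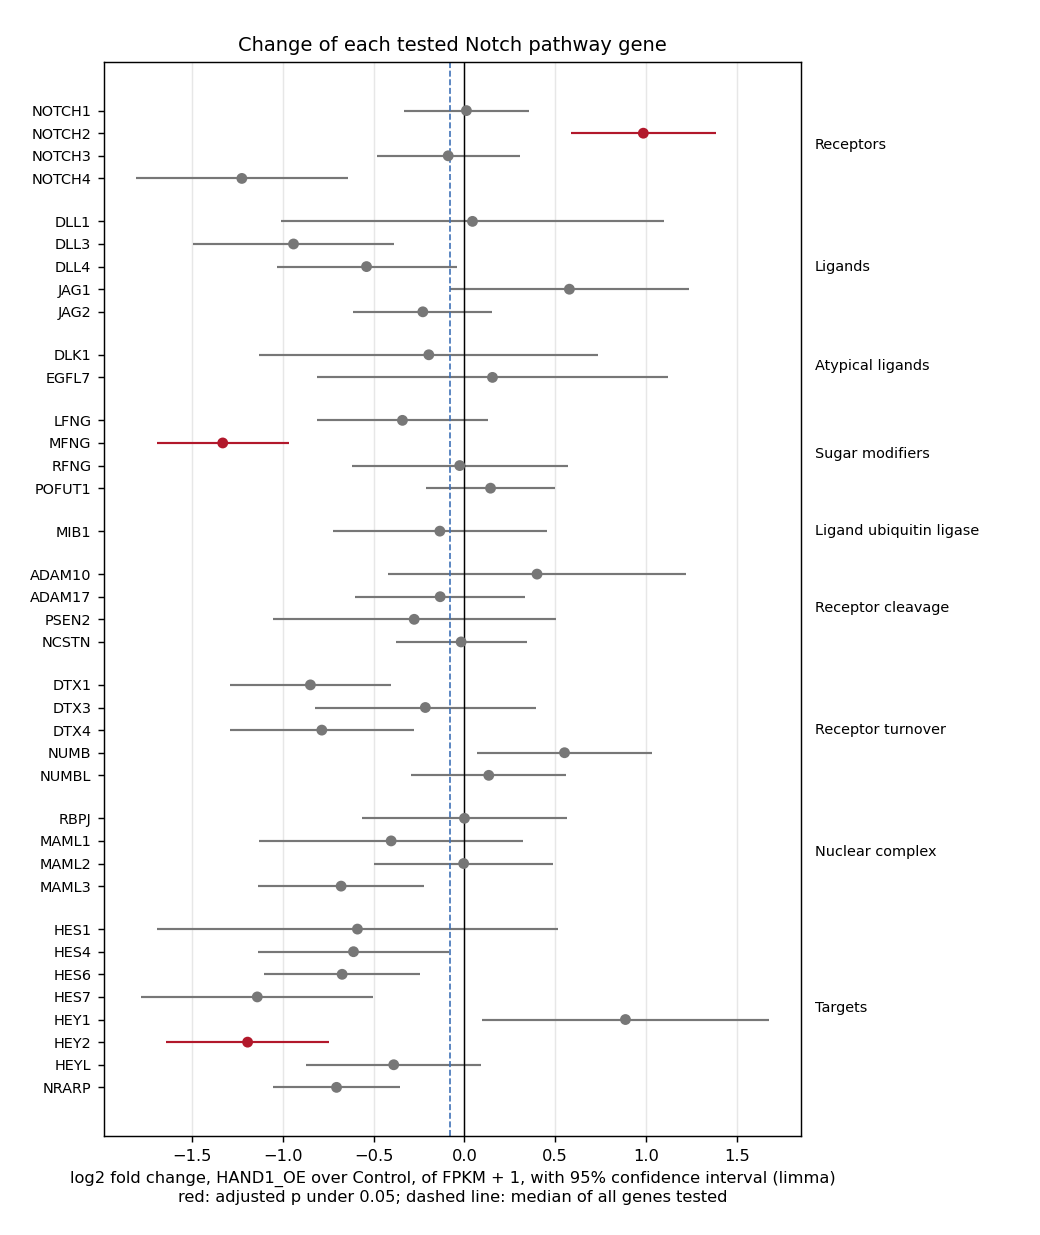
Log2 fold change of each of the 37 tested Notch genes, HAND1_OE over Control, of FPKM + 1, with its 95% confidence interval from limma; red marks an adjusted p under 0.05 and the dashed line is the median of all genes tested (-0.078). NOTCH2 (0.99) is the red point to the right and MFNG (-1.33) and HEY2 (-1.19) are the red points to the left, while most other intervals cross 0.

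The next comparison concerned enzymes that add sugars to the receptors. POFUT1 adds the O-fucose that Notch needs, and the Fringe enzymes LFNG, MFNG and RFNG extend it and so set how strongly a receptor answers Delta-like or Jagged ligands. MFNG had the smallest adjusted p of the 37 tested genes. MFNG (ENSG00000100060.17, GRCh38 chromosome 22, 37469063 to 37486401) was at 43.5 and 40.2 FPKM in Control, against 15.4 and 16.7 FPKM in HAND1_OE. The libraries of each group agreed closely and the groups were far apart. From a mean of 41.8 ± 2.35 FPKM it fell to 16.0 ± 0.933 FPKM (SD, n = 2), and the log2 fold change was -1.33 (standard error 0.146, limma adjusted p = 0.0132). It stayed called when each library was left out in turn, with adjusted p-values from 0.00576 to 0.0198.

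LFNG had a Control mean of 25.7 ± 3.92 FPKM and a HAND1_OE mean of 20.1 ± 3.19 FPKM, and RFNG 40.9 ± 8.99 and 40.3 ± 9.86 FPKM (SD, n = 2). Neither passed (limma adjusted p = 0.456 and 0.978). Of the exonic bases of RFNG, 21.6% are shared with GPS1 on the other strand, and the kit named in the labels does not mark strand, so part of the RFNG value cannot be told apart from GPS1. POFUT1 was at 14.1 and 14.4 FPKM in Control, against 15.7 and 16.1 FPKM in HAND1_OE. Its log2 fold change was 0.14, with a 95% confidence interval from -0.21 to 0.50.

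Genes of ligand uptake and receptor cutting showed no call. MIB1, the ubiquitin ligase that lets a ligand pull on its receptor, had a Control mean of 11.5 ± 2.42 FPKM and a HAND1_OE mean of 10.4 ± 2.62 FPKM (SD, n = 2). The sheddases ADAM10 and ADAM17 and the gamma-secretase subunits PSEN2 and NCSTN had log2 fold changes from -0.28 to 0.40, and their groups overlapped in all 4 cases. ADAM10 was the most abundant of them, at 55.9 and 82.5 FPKM in Control, against 67.1 and 121 FPKM in HAND1_OE. NCSTN was the steadiest, with means of 51.7 ± 1.88 and 51.1 ± 4.03 FPKM. The Control and HAND1_OE means of ADAM17 were 14.6 ± 1.35 and 13.4 ± 2.52 FPKM, and those of PSEN2 were 11.9 ± 5.30 and 9.24 ± 1.63 FPKM. Of the exonic bases of ADAM17, 12.3% are shared with IAH1, so its value is uncertain by that overlap. None of these 5 genes had an unadjusted p under 0.05 in limma.

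Regulators of receptor turnover differed among themselves. NUMB, an endocytic adaptor that antagonizes Notch, was at 54.0 and 63.8 FPKM in Control, against 75.0 and 99.6 FPKM in HAND1_OE. Both HAND1_OE libraries were higher, but the log2 fold change of 0.55 did not pass (standard error 0.194, limma adjusted p = 0.230). DTX1 and DTX4 are Deltex ubiquitin ligases that act on Notch receptors, and DTX1 is itself a target of the pathway in lymphocytes. DTX1 was at 8.26 and 9.04 FPKM in Control, against 4.82 and 3.93 FPKM in HAND1_OE (log2 fold change -0.85, standard error 0.178, limma adjusted p = 0.0689). DTX4 was at 10.1 and 11.2 FPKM in Control, against 4.83 and 6.84 FPKM in HAND1_OE (log2 fold change -0.79, standard error 0.204, limma adjusted p = 0.117). Both Deltex genes were lower in both HAND1_OE libraries without passing. DTX3 (log2 fold change -0.21) and NUMBL (0.13), a paralog of NUMB, had overlapping groups, at 45.3 and 29.7 FPKM in Control and 35.5 and 27.9 FPKM in HAND1_OE for DTX3, and with means of 10.3 ± 1.58 and 11.4 ± 0.207 FPKM for NUMBL.

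In the nuclear complex, RBPJ was level between the groups while MAML3 was lower without passing. RBPJ was at 13.0 and 17.9 FPKM in Control, against 13.2 and 17.6 FPKM in HAND1_OE, and its log2 fold change of 0.00065 had a 95% confidence interval from -0.56 to 0.56. The interval is wide, and an interval clear of 0 was not enough for a call. NOTCH4, with a standard error of 0.235 against 0.226 for RBPJ, was not called at a log2 fold change of -1.23. Its 95% confidence interval ran from -1.81 to -0.64. The Mastermind-like coactivator MAML3 was at 7.16 and 8.18 FPKM in Control, against 3.95 and 4.90 FPKM in HAND1_OE (log2 fold change -0.68, standard error 0.184, limma adjusted p = 0.132). MAML1 and MAML2 had overlapping groups, with log2 fold changes of -0.40 and -0.0040. Their Control and HAND1_OE means were 6.38 ± 2.85 and 4.37 ± 0.243 FPKM for MAML1 and 1.85 ± 0.251 and 1.84 ± 0.131 FPKM for MAML2. Of the 9 turnover and nuclear genes, none passed in limma, and 1 in the upward and 3 in the downward direction had an unadjusted p under 0.05, where 6.82% and 10.6% of all genes did.

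The last group held the genes listed as targets. The RNA level of targets is the usual readout of the pathway, but whether each listed gene answers Notch in these cells was not tested. Of the 10 listed, 8 were tested and only HEY2 was called. Only HEY1 had a fold change above 0. The median log2 fold change of the 8 was -0.64, beside -0.078 for all genes, and 6 of them were lower in both HAND1_OE libraries than in both Control libraries, as 30.1% of all genes were. With 8 genes nothing particular to the targets can be read from this. The promoters of these genes are shown because RBPJ binds the core letters TGGGAA, which read TTCCCA on the other strand. Of the 39 genes, 32 had a RefSeq promoter window, from 250 bases before to 50 bases after a transcription start in GRCh38.p14. DLL1, DLL3, DLK1, MFNG, DTX1, DTX3 and HEY1 had none, so the target HEY1 was not searched. Among the 9 windows of target genes, 5 held the core at least once, and 22.5% of the 40 windows of all Notch genes did, where 24.0% of all 35116 promoter windows did. The windows of HES1, HES4, HES5 and HEY2 are printed 5′ to 3′ on the strand of the gene, with the core in capitals. HES1 lies at chr3:194135898-194136197 on the plus strand, HES4 at chr1:1000048-1000347 and HES5 at chr1:2530214-2530513 on the minus strand, and HEY2 at chr6:125749382-125749681 on the plus strand.
HES1: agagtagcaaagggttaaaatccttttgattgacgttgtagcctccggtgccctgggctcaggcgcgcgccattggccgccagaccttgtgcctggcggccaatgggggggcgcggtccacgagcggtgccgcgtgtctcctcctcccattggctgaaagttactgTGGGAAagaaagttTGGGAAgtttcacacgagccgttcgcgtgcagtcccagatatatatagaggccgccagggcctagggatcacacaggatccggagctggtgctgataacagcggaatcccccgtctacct
HES4: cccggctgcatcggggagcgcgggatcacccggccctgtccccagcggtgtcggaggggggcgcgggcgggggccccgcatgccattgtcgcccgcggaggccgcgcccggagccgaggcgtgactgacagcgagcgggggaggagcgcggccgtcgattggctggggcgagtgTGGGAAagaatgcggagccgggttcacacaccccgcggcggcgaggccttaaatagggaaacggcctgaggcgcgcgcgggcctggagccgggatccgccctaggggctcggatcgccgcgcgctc
HES5: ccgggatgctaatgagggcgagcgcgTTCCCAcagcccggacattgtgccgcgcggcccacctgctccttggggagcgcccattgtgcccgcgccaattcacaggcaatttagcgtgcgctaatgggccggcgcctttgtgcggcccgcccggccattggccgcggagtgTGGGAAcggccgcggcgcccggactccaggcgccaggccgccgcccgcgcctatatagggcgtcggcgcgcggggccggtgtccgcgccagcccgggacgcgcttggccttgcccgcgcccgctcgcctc
HEY2: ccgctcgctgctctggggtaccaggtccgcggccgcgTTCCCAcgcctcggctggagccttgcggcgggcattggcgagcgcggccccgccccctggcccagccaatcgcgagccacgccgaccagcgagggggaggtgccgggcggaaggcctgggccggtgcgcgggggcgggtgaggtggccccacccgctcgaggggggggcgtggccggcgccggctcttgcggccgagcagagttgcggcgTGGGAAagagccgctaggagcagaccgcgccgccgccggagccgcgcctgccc

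The HES1 window held 2 cores in the same orientation, which began 84 and 70 bases before the start. HES4 held a core that began 76 bases before it, and HES5 held cores that began 224 and 80 bases before it. HEY2 held a core that began 213 bases before the start and another that spanned it. HEYL also held 2 cores. The windows of HES2, HES6, HES7 and NRARP held none, which says only that these letters do not occur in these 300 bases. The letters CATCTG, which read CAGATG on the other strand and form an E-box bound by HAND1 with its partners, occurred in 3 of the 40 windows of Notch genes (EGFL7, LFNG and MAML2), or 7.5%, against 14.7% of all windows, and in no window of a target. A match of letters is not evidence of binding.

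**Figure D3:**
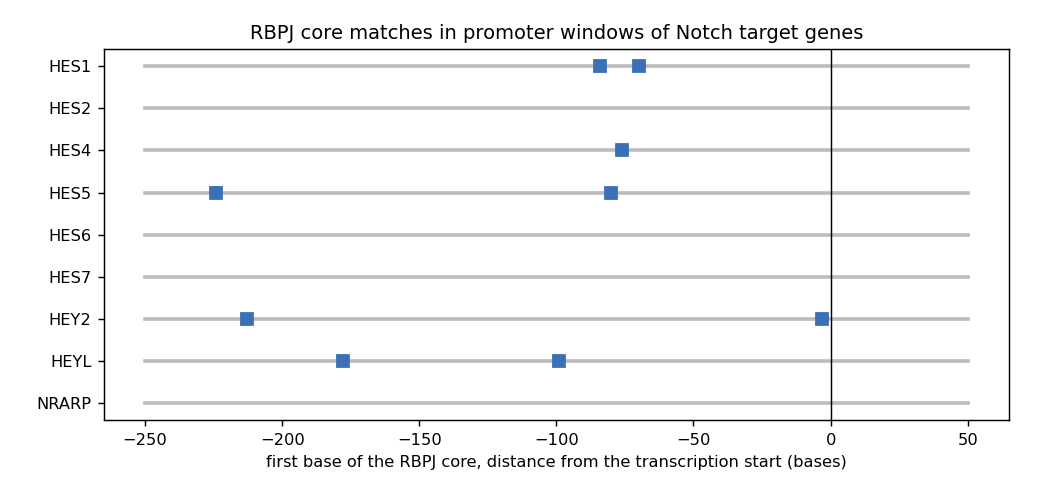
Position of the RBPJ core in the promoter windows of 9 target genes, as the distance in bases of its first letter from the transcription start (0); the grey line is the window searched, from 250 bases before to 50 after. HES1, HES4 and HES5 each have a core that begins 70 to 84 bases before the start, and 4 windows have none.

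HEY2 (ENSG00000135547.8, GRCh38 chromosome 6, 125747664 to 125761269), a repressor known for arterial and cardiac development, was at 36.5 and 31.9 FPKM in Control, against 12.7 and 16.3 FPKM in HAND1_OE. The groups were well apart. From a mean of 34.2 ± 3.26 FPKM it fell to 14.5 ± 2.56 FPKM (SD, n = 2), and the log2 fold change was -1.19 (standard error 0.181, limma adjusted p = 0.0311). Without Control replicate 1 the adjusted p was 0.0518, and it passed without each of the others. HEY1, its close paralog, was at 168 and 91.0 FPKM in Control, against 262 and 201 FPKM in HAND1_OE. Both HAND1_OE libraries were above both Control libraries, but the Control libraries differed widely, and the log2 fold change of 0.89 did not pass (standard error 0.318, limma adjusted p = 0.236). This fold change was 1.32 without Control replicate 1, 0.45 without Control replicate 2, 0.69 without HAND1_OE replicate 1 and 1.08 without HAND1_OE replicate 2. Its size depended most on which Control library was kept. Replicate 1 was the higher library in both groups. HAND1_OE was higher within each replicate number, which marks no stated pairing. HEYL, the least abundant of the 3, had a Control mean of 3.09 ± 0.365 FPKM and a HAND1_OE mean of 2.12 ± 0.245 FPKM (SD, n = 2) and did not pass.

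NRARP, a small ankyrin-repeat protein that is induced by Notch and dampens it, was at 132 and 133 FPKM in Control, against 78.2 and 84.0 FPKM in HAND1_OE. The libraries of each group agreed closely, yet the log2 fold change of -0.70 (standard error 0.140) just missed the threshold (limma adjusted p = 0.0602). HES4, a HES repressor that is absent from the mouse genome, was at 273 and 222 FPKM in Control, against 188 and 138 FPKM in HAND1_OE (log2 fold change -0.61, limma adjusted p = 0.225). It was the most abundant HES gene in each library. HES1, the best known target, was at 132 and 55.2 FPKM in Control, against 71.6 and 44.4 FPKM in HAND1_OE. Its groups overlapped, and the sign of its fold change depended on Control replicate 1. Replicate 1 was the higher library in both groups. HAND1_OE was lower within each replicate number, which marks no stated pairing. The log2 fold change was -0.59 with all libraries, 0.031 without Control replicate 1 and -1.21 without Control replicate 2.

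HES6, which unlike its relatives can relieve repression by HES1, was at 8.30 and 8.30 FPKM in Control, against 5.31 and 4.39 FPKM in HAND1_OE (log2 fold change -0.67, limma adjusted p = 0.112). HES7, the oscillating repressor of the somite clock, was at 3.12 and 2.70 FPKM in Control, against 1.14 and 0.465 FPKM in HAND1_OE (log2 fold change -1.14, limma adjusted p = 0.0824). The log2 fold change of HES7 was -1.42 without HAND1_OE replicate 1 and -0.87 without HAND1_OE replicate 2. In the first of these fits the HAND1_OE value left was 0.465 FPKM, under the 1 FPKM of the filter. HES2 and HES5 were too low to be tested. HES2 was at 0.516 and 0.491 FPKM in Control, against 0.154 and 0.0767 FPKM in HAND1_OE, and HES5 at 1.64 and 0.585 FPKM in Control, against 0.112 and 0.129 FPKM in HAND1_OE. At such levels few fragments stand behind a value, and their number is not known from FPKM. All 6 HES genes, HES2 and HES5 included, had a lower mean in HAND1_OE. Of all genes tested, 61.3% had a log2 fold change below 0. That share does not count mean FPKM and leaves out untested genes such as HES2 and HES5, so the 2 measures are unlike. The 6 genes summed to 418 and 290 FPKM in Control and 266 and 188 FPKM in HAND1_OE. On average HES4 and HES1 supplied 71.0% and 25.3% of that sum in Control and 72.1% and 25.3% in HAND1_OE.

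The makeup of each gene family within a library was then examined, because a share of a sum does not change when a library is scaled by a common factor. NOTCH4 made up 17.3% and 19.7% of the receptor FPKM in Control and 6.91% and 9.73% in HAND1_OE. NOTCH2 made up 3.11% and 3.28% in Control and 7.74% and 7.14% in HAND1_OE. NOTCH3 held a like share in all 4 libraries, between 16.4% and 17.9%. DLL4 supplied 73.9% and 74.8% of the ligand FPKM in Control and 65.5% and 72.3% in HAND1_OE, and JAG1 1.80% and 2.84% in Control against 4.49% and 5.09% in HAND1_OE. MFNG held 38.3% and 38.9% of the Fringe FPKM in Control and 19.1% and 23.1% in HAND1_OE. With 2 libraries a group, an exact permutation test of such a share cannot give a two-sided p under 0.05, so these are descriptions.

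Ratios of FPKM within a library were computed for 6 pairs, chosen after the values were seen, so their differences are no evidence of their own. The ratio of HEY1 to HEY2 was 4.59 and 2.85 in the Control libraries and 20.7 and 12.3 in the HAND1_OE libraries. The ratio of NOTCH4 to NOTCH2 went the other way, from 5.56 and 6.0 in Control to 0.893 and 1.36 in HAND1_OE. The groups did not overlap for these pairs, nor for NOTCH1 to NOTCH4, RFNG to MFNG and DLL4 to JAG1. The ratio of DLL4 to JAG2 overlapped, at 3.31 and 3.87 in Control and 2.37 and 3.52 in HAND1_OE.

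**Figure D4:**
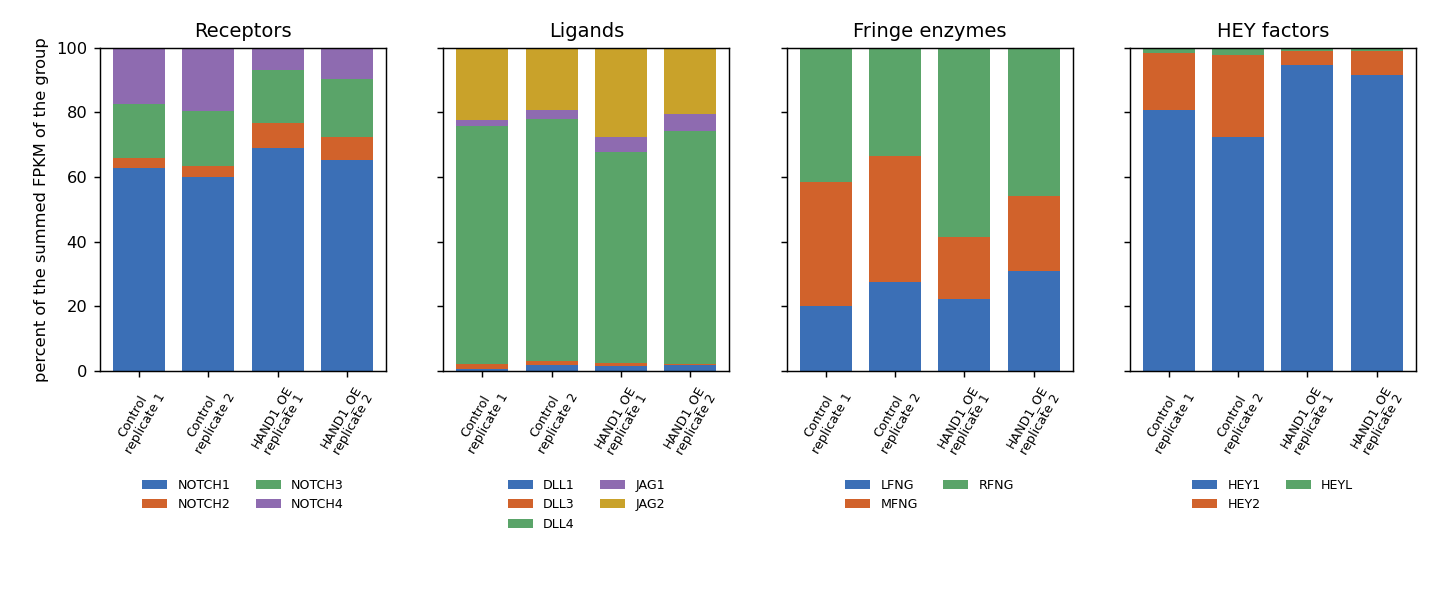
Share of the summed FPKM of the 4 receptors, the 5 ligands, the 3 Fringe enzymes and the 3 HEY factors that each gene makes up, in percent, 1 bar for each library. NOTCH4, MFNG and HEY2 take smaller shares in both HAND1_OE libraries, and HEY1 takes 94.6% and 91.7% of the HEY sum there against 80.8% and 72.3% in Control.

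Other genes of the pathway were taken from a list of 39 further genes, among them gamma-secretase subunits, ubiquitin ligases, coactivators and corepressors, of which 34 were tested. KAT2B, an acetyltransferase that acts as a coactivator, was the only gene called, at 7.91 and 8.33 FPKM in Control, against 15.1 and 16.0 FPKM in HAND1_OE. The groups were well apart (log2 fold change 0.86, standard error 0.151, limma adjusted p = 0.0429), but the call was lost when any of the 4 libraries was left out. None of the 34 was called lower in limma, and 3 had an unadjusted p under 0.05 in that direction, where 10.6% of all genes did. Their median log2 fold change was -0.025, where that of all genes was -0.078.

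Markers of the cell types that a CD31+ population can hold were examined beside these results, with the Notch genes left out of each list. The endothelial markers were present in all libraries. PECAM1, which encodes CD31, was at 95.5 and 141 FPKM in Control, against 92.0 and 160 FPKM in HAND1_OE, and the 13 endothelial markers summed to 1397 to 1603 FPKM in Control and 1479 to 1588 FPKM in HAND1_OE. Of these 13, VWF was called higher and CLDN5 and MMRN1 lower, where 2.04% and 2.11% of all genes tested were. The called genes are named here after their values were seen. The 8 other arterial markers summed to 1194 and 1200 FPKM in Control and to 787 and 1046 FPKM in HAND1_OE, and none of the 7 tested was called. Both HAND1_OE libraries lay below both Control libraries for 5 of the 8, among them BMX, which was too low to be tested. The reverse held for 0 of the 8. Over all genes tested the shares were 30.1% and 16.2%. The 5 venous markers summed to between 222 and 253 FPKM in each library, with no call.

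Most blood markers were lower in HAND1_OE. The 13 blood genes summed to 443 and 631 FPKM in Control and to 65.3 and 120 FPKM in HAND1_OE. Of the 12 tested, 10 were called lower, where 2.11% of all genes tested were. GATA1 was at 25.6 and 29.6 FPKM in Control, against 1.51 and 0.543 FPKM in HAND1_OE. PTPRC, which encodes CD45, was at or near 0 in all libraries (at most 0.0227 FPKM). The 10 mesenchyme and stroma markers summed to 439 and 536 FPKM in Control and to 595 and 661 FPKM in HAND1_OE, but they did not move as a group. Both HAND1_OE libraries were above both Control libraries for 6 of the 10, as they were for 16.2% of all genes tested. Of these 6, PDGFRB, POSTN and LUM, named after their values were seen, were called higher, where 2.04% of all genes tested were. Both HAND1_OE libraries were below both Control libraries for COL1A1 and COL1A2, and TAGLN and DCN overlapped. COL3A1 carried the larger sum, at 160 and 97.9 FPKM in Control and 325 and 241 FPKM in HAND1_OE, and without it the other 9 summed to 376 and 341 FPKM in Control and 337 and 354 FPKM in HAND1_OE. None of the tested pluripotency or epithelial markers was called, and their sums ranged from 51.5 to 88.5 FPKM and from 230 to 327 FPKM over the 4 libraries. The blood markers were lower in the same libraries as MFNG, HEY2 and NOTCH4, and PDGFRB, POSTN and LUM were higher in the same libraries as NOTCH2. Their part in these results was not tested. In such bulk samples, fewer cells of a type and less RNA per cell cannot be told apart.

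The calls also depended on which genes were tested. When the filter was dropped and 29860 genes were tested, none of the Notch genes was called in limma, and MFNG, HEY2 and NOTCH2 had adjusted p-values of 0.153, 0.181 and 0.166. Their fold changes were the same in that fit, and 1 Notch gene in the upward and 11 in the downward direction had an unadjusted p under 0.05.

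**Figure D5:**
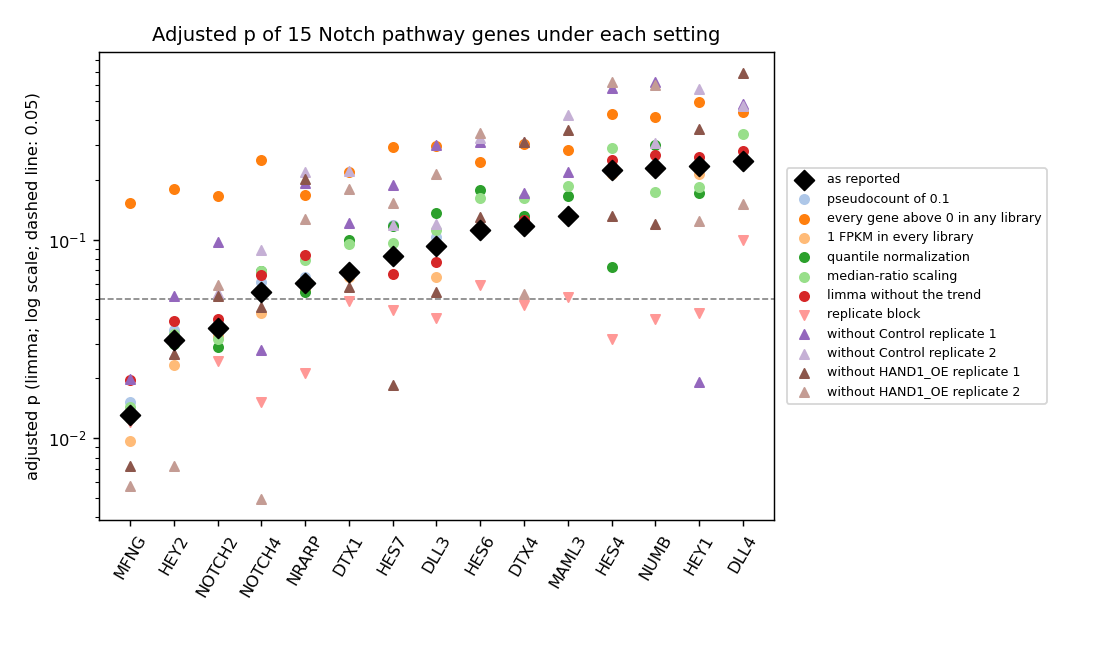
Adjusted p (limma, log axis) of the 15 Notch genes with the smallest values, as reported (black diamonds) and under each alternative setting; the dashed line is 0.05. MFNG lies below the line in every setting but the one that tests each gene above 0 (0.153), whereas NOTCH4 crosses it, from 0.00496 to 0.253.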

How the data were processed

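The titles of the samples gave the groups. The authors deposited a table of 58365 rows with a value per gene and library. No unit is stated in it. The deposited values were read as FPKM, the unit the study plots, and the submitters' processing notes name BWA, Bowtie and RSEM with no role or version. Those notes also name hg19, but the gene coordinates of the rows are those of GRCh38: of 55605 kept rows whose ID is in GENCODE release 29, 55583 have its start and end. The fragments behind a value are unknown, so no counting interval is given. The 45 rows of Y copies were left out, and 91 rows that repeated a gene ID were dropped in favor of the one with the largest mean.

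For genes at 1 FPKM or more in at least 2 libraries, log2(FPKM + 1) was fitted by limma 3.58.1 under R 4.3.3, using its mean-variance trend and two-sided tests, with Benjamini-Hochberg adjustment over all 14622 genes tested. The same code was also run on simulated data, with noise drawn independently for each library and variances modeled on these same libraries. No result given here rests on that run. Members and lists were chosen with earlier results of these data known. Of the 39 Notch genes, those called are given in every library. So are those with non-overlapping groups and an absolute log2 fold change of 0.5 or more. Of the markers and the other pathway genes, only some are given in this way. Shares and ratios were added after values were seen. Alternatives covered the pseudocount (0.1), filters, scaling, the limma trend, a replicate block, each library left out, and a fold change of at least 2. Promoter windows are from RefSeq.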

Additional observations from a re-analysis of the deposited data

How the results depend on the processing

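With 2 libraries a group, a call rests on few degrees of freedom, and where a group is left with 1 library that library is assumed to vary like the others. The calls of NOTCH2, HEY2 and MFNG were the same with a pseudocount of 0.1, quantile normalization, median-ratio scaling or no trend in limma, and with 1 FPKM in every library NOTCH4 was called too. Testing every gene above 0 gave 0 Notch, 0 other pathway and 0 calls over all genes in limma, in both directions, where an unadjusted p under 0.05 was reached by 1458 genes upward and 2352 downward. More genes, of low level, enter that fit. The single other pathway call became 0 without the trend, and requiring a 2-fold change left 0 Notch genes higher, 2 lower and 0 other pathway genes higher. NOTCH2 missed that limit only on the log2(FPKM + 1) scale (0.99), since its ratio of mean FPKM was 2.14.

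The titles number the libraries 1 and 2 in each group, which marks no stated pairing. Differences of replicate 1 minus replicate 2 correlated between groups at r = 0.383 over 14622 genes, which are not independent. With the replicate block, 3 Notch genes were called higher (NOTCH2, HEY1 and NUMB) and 9 lower (MFNG, HEY2, NOTCH4, NRARP, HES4, HES7, DLL3, DTX1 and DTX4), 597 and 712 of all genes, and 1 other pathway gene in each direction.

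Leaving out each library in turn gave 0 to 1 Notch genes higher, 2 to 4 lower and 0 other pathway genes higher. Over 37 genes and 406 values under alternatives, 33 changed sign, in genes with no call, and 20 genes never did. Quantile normalization gave -9.7e-05 for NOTCH1, 0.0029 for RFNG and 0.12 for MAML2, and median-ratio scaling gave 0.0016 for NOTCH3, 0.066 for RFNG, 0.056 for MAML2 and 0.074 for NCSTN. The log2 fold changes with a library left out ran from -0.014 to 0.037 for NOTCH1, from -0.20 to 0.026 for NOTCH3, from -0.57 to 0.66 for DLL1, from -1.21 to 0.031 for HES1, from -0.27 to 0.22 for RFNG, from -0.22 to 0.22 for RBPJ, from -0.81 to 0.00057 for MAML1, from -0.094 to 0.086 for MAML2, from -0.51 to 0.081 for DTX3, from -0.0082 to 0.28 for NUMBL, from -0.019 to 0.82 for ADAM10, from -0.31 to 0.047 for ADAM17, from -0.71 to 0.16 for PSEN2, from -0.097 to 0.061 for NCSTN, from -0.37 to 0.10 for MIB1, from -0.74 to 0.34 for DLK1 and from -0.30 to 0.61 for EGFL7. The cause of these changes was not tested.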
